A study of Homo sapiens with 23 samples.

Results

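The 10 genes described here encode proteins that bring long-chain fatty acids into a cell and couple them to coenzyme A. They are CD36, FABP1, FABP2, SLC27A2, SLC27A4, SLC27A5, ACSL1, ACSL3, ACSL4 and ACSL5. The genes were chosen by name for their role, with earlier results of these data known. Each was found at 1 row among the 60564 genes listed for every library. The values come from 23 mRNA-seq libraries of 2 established human tumour cell lines grown in the iGLC platform, a microfluidic chip with a gut chamber and a liver chamber joined by circulating medium. Caco-2 is a colorectal adenocarcinoma line that takes on features of small intestinal enterocytes, and HepG2 is a hepatocellular carcinoma line. Each line was either mono-cultured or co-cultured with the other line. Each culture was treated for 1 day with 1 mM FFAs, a mixture of palmitic and oleic acid, or was left without FFAs as the control. There were 3 libraries in each of the 8 groups, except co-cultured control Caco-2 cells with 2, which gives 11 Caco-2 and 12 HepG2 libraries. No group carried a genetic change. The labels give fetal bovine serum in the treatment medium, whereas the methods describe medium without serum and with albumin, and nothing in the labels says that libraries of a group came from separate chips, so p-values measure the spread between these libraries.

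Fatty acids that reach a cell surface are handed on in steps. CD36 is a membrane glycoprotein that binds fatty acids at the surface, and the small proteins FABP1 and FABP2 bind them in the cytosol of hepatocytes and enterocytes. The SLC27 family, also called FATP, combines transport with acyl-CoA synthetase activity, and the ACSL enzymes convert long-chain fatty acids to acyl-CoA, the form used for triglyceride synthesis, β-oxidation and membrane lipids. Both the absorptive enterocyte and the hepatocyte are known for high expression of this pathway.

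FABP1 had the highest level of the 10 genes in both lines and FABP2 the lowest, so the promoters of this pair are shown. They are the 250 bases before the annotated start in RefSeq (GRCh38.p14), read along the gene. FABP1 lies on the minus strand of chromosome 2 (88122982 to 88128062) and its window is chr2:88128063-88128312. FABP2 lies on the minus strand of chromosome 4 (119317250 to 119322138) and its window is chr4:119322139-119322388. Capitals mark matches on either strand to AGGTCA, a half-site of nuclear receptors, GTTAAT, a half-site of HNF1, TTTATG, a CDX motif, TCACNCCAC, a sterol element, and TATAAA, with no overlap between matches.
FABP1: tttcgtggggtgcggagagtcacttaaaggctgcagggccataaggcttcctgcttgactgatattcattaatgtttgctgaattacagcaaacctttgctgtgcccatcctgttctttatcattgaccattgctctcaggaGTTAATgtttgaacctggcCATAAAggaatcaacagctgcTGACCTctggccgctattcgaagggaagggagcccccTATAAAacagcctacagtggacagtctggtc
FABP2: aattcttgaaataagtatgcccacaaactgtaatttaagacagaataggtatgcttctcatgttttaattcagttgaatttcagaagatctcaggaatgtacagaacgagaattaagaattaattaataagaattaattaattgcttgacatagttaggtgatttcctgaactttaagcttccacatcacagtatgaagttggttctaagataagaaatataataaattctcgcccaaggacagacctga
FABP1 held 4 of these 5 motifs, all but TCACNCCAC, and FABP2 held 0 of them. Among the 35116 promoter windows of the same length in the table, 12.1% held AGGTCA, 6.23% held GTTAAT, 9.64% held TTTATG, 0.883% held TCACNCCAC and 10.7% held TATAAA. The FABP1 window had a GC content of 48.0% and the FABP2 window 31.2%, against a median of 58.0% over all windows. The single windows of SLC27A2, SLC27A4, SLC27A5, ACSL3 and ACSL4 were between 62.8% and 77.2% GC, and none of the 5 motifs was found in them.

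The deposited values are TPM, a measure of transcript abundance that is scaled to gene length and to a fixed total per library, so the levels of different genes can be set side by side. The files keep no read counts, so the depth is unknown and no counting error is given. Exons of 6 of the 10 genes overlap exons of another annotated gene, and no source used here says that reads were counted by strand. The overlap was largest for SLC27A2, where 19.9% of the exonic bases are shared with the opposite-strand gene ATP8B4, and for SLC27A5, where 14.1% are shared with the opposite-strand gene ZNF446. ATP8B4 was at most 1.26 TPM in any library and ZNF446 was between 2.95 and 9.17 TPM, so the values of SLC27A5 in Caco-2 cells, between 5.90 and 15.4 TPM, are uncertain in this respect.

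The markers of each line's label were only partly at the levels of that cell type. The enterocyte genes CDX2 and CDH17 were at least 60.4 and 354 TPM in every Caco-2 library and at most 0.730 and 2.75 TPM in every HepG2 library, whereas CDX1 was at most 0.180 TPM in either line and GPA33, KRT20 and LGALS4 had medians of 0.860, 1.25 and 5.05 TPM in Caco-2 cells. The 10 enterocyte markers summed to between 1004 and 1449 TPM in Caco-2 and between 166 and 265 TPM in HepG2 cells. Albumin (ALB) was between 20460 and 33859 TPM in HepG2 cells and also between 321 and 769 TPM in Caco-2 cells, and the summed TPM of 10 hepatocyte markers in Caco-2 libraries was 4.64% to 8.99% of that in mono-cultured control HepG2 cells. AMBP, a hepatocyte gene, was 62.0 TPM in co-cultured FFAs-treated Caco-2 replicate 1 and 23.5 TPM in co-cultured control replicate 1, against 6.47 to 9.64 TPM in the mono-cultured Caco-2 libraries and at least 3383 TPM in HepG2 cells. Of the 10 hepatocyte markers, HPX had a higher median in Caco-2 (20.1 TPM) than in HepG2 cells (12.9 TPM), and the ranges of TTR overlapped. The extract label names myoblasts, and MYOD1, MYH8 and TNNT3 were listed at 0 in all 23 libraries, while the summed skeletal muscle markers were at most 1.15 TPM in Caco-2 and between 7.74 and 41.4 TPM in HepG2 cells. The HepG2 libraries numbered 3 stood apart, with 21588 to 22416 genes above 0 TPM against 19259 to 20873 in the other HepG2 libraries. Some results that rest on them are given with and without them, the others with all libraries only.

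The levels of the 10 genes spread widely within each line. In Caco-2 cells the order of median TPM over 11 libraries was FABP1 (813), ACSL3 (202), ACSL5 (128), SLC27A2 (67.0), ACSL1 (36.1), SLC27A4 (16.3), ACSL4 (15.8), SLC27A5 (8.47), CD36 (0.230) and FABP2 (0). The ranges over libraries overlapped for the neighbours ACSL3 and ACSL5, for SLC27A4, ACSL4 and SLC27A5, and for CD36 and FABP2. In HepG2 cells the order over 12 libraries was FABP1 (3948), ACSL3 (416), ACSL5 (120.1), ACSL4 (103), ACSL1 (64.7), SLC27A5 (39.6), SLC27A4 (27.0), SLC27A2 (26.1), CD36 (3.23) and FABP2 (1.10). FABP1, ACSL3 and ACSL5 took the first 3 places in both lines, and in HepG2 cells the ranges overlapped for ACSL5 and ACSL4, for the neighbours from ACSL1 through SLC27A2, and for CD36 and FABP2.

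**Figure D1:**
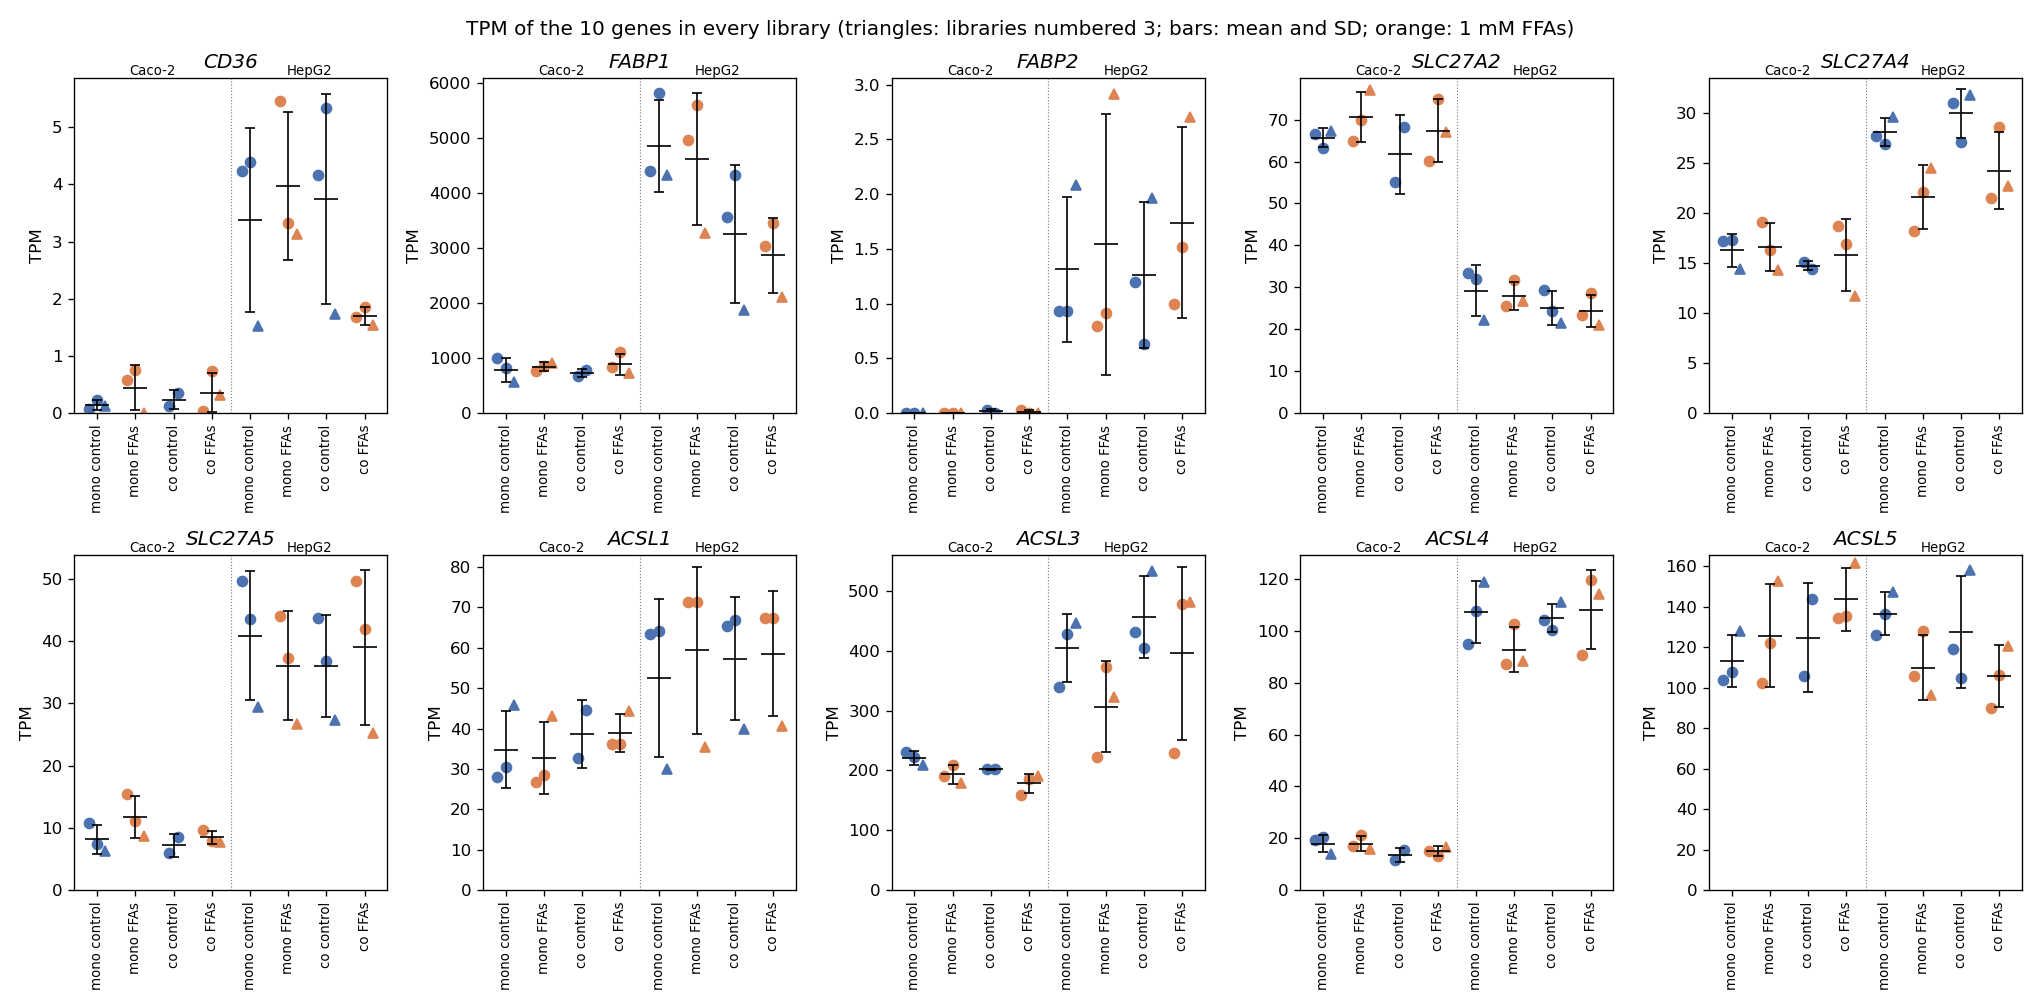
TPM of each of the 10 genes (vertical axis, from 0, a different scale in each panel) in every library of the 8 groups (horizontal axis), with the mean and SD of each group as black bars, control in blue, 1 mM FFAs in orange, and libraries numbered 3 as triangles. The HepG2 points lie above all Caco-2 points for ACSL4, SLC27A5, FABP1, FABP2 and CD36 and below them for SLC27A2, while control and FFAs points of a line mostly overlap.

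The lines were compared to ask which steps of uptake and activation differ between the gut and the liver model. Of the 10 genes, 8 were higher and 1 was lower in HepG2 than in Caco-2 cells when the 4 groups were averaged, at an adjusted p under 0.05 in limma, and ACSL5 did not pass. Across all 16495 genes tested, 79.0% passed, 29.2% higher and 49.8% lower in HepG2 cells, so a call by itself sets no gene apart here. In bulk libraries fewer cells of a type and less RNA per cell cannot be told apart. With median-of-ratios scaling, 6091 genes were higher and 6728 lower, against 4814 and 8216 with TPM as deposited. The median difference of all genes was -0.24 on the log2 scale with TPM as deposited, and the median of the 10 genes was 1.08. CD36 and FABP2 were under 1 TPM in every Caco-2 group and entered the test through HepG2 cells alone, so a difference was bound to appear for them. No library of one line overlapped any of the other for 5 genes that were higher in HepG2 cells (FABP1, FABP2, CD36, SLC27A5 and ACSL4) and for SLC27A2, which was lower, against 42.7% of all genes (14.1% higher and 28.6% lower). In mono-cultured controls alone 8 of the 10 genes passed, 7 of them higher in HepG2 cells, against 62.4% of all genes (23.4% higher and 39.0% lower), and ACSL1 and ACSL5 did not pass.

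FABP1, the liver fatty acid-binding protein, was abundant in both lines and higher in HepG2 cells. In mono-cultured control HepG2 cells it was 4399, 5816 and 4332 TPM, and in mono-cultured control Caco-2 cells it was 997, 813 and 563 TPM. The lowest of all 12 HepG2 libraries, at 1880 TPM, was above the highest of all 11 Caco-2 libraries, at 1104 TPM. The log2 difference between HepG2 and Caco-2 cells was 2.64 ± 0.28 (SE) in mono-cultured controls (adjusted p = 8.88e-08, limma) and 2.21 ± 0.14 averaged over the 4 groups (adjusted p = 2.02e-11), a 4.61-fold difference. FABP1 made up 80.0% to 89.7% of the summed TPM of FABP1 to FABP7 in Caco-2 libraries and 91.5% to 97.9% in HepG2 libraries. The heart-type gene FABP3 was 28.4 to 59.1 TPM in Caco-2 cells and at most 0.880 TPM in HepG2 cells.

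FABP2, the intestinal fatty acid-binding protein and a product of mature enterocytes, was listed at 0 in 9 of the 11 Caco-2 libraries and at 0.0300 TPM in the other two, which were replicate 1 of both co-cultured groups. In HepG2 cells it was low in every library, from 0.630 to 2.91 TPM. The highest HepG2 value in each group was that of the library numbered 3, with 2.08, 2.91, 1.96 and 2.7 TPM in mono-cultured control, mono-cultured FFAs-treated, co-cultured control and co-cultured FFAs-treated cells. The other 8 HepG2 libraries did not exceed 1.52 TPM. The 2 lines did not overlap, and no fold is given against values listed at 0.

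CD36 was near the bottom of the range in both lines. It was at most 0.760 TPM in Caco-2 cells, where 1 library listed it at 0. In HepG2 cells it was between 1.52 and 5.46 TPM, with a mean of 3.38 ± 1.61 TPM (SD, n = 3) in mono-cultured controls. The lines did not overlap, and the averaged log2 difference was 1.63 ± 0.16 on the log2(TPM + 1) scale, which understates the change of low genes.

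The 3 transport proteins of the SLC27 family changed places between the lines. SLC27A2 (FATP2), a very-long-chain acyl-CoA synthetase of liver, kidney and gut that lies on chromosome 15 (50182196 to 50236385, plus strand), was the only one of the 10 genes that passed the test with a lower level in HepG2 cells. It was 66.6, 63.1 and 67.3 TPM in mono-cultured control Caco-2 cells and 33.4, 31.9 and 22.2 TPM in mono-cultured control HepG2 cells. No HepG2 library reached the lowest Caco-2 library, at 55.1 TPM. Averaged over the 4 groups, the log2 difference was -1.29 ± 0.08 (adjusted p = 1.06e-11, limma), a level 2.45-fold lower in HepG2 cells.

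SLC27A5 (FATP5), the bile acid and very-long-chain acyl-CoA synthetase of hepatocytes, on chromosome 19 (58479512 to 58512413, minus strand), had the opposite pattern. It was 10.8, 7.38 and 6.22 TPM in mono-cultured control Caco-2 cells and 49.7, 43.5 and 29.4 TPM in mono-cultured control HepG2 cells. The lines did not overlap in any group, since the highest Caco-2 library was at 15.4 TPM and the lowest HepG2 library at 25.3 TPM. The averaged log2 difference was 1.98 ± 0.14 (adjusted p = 9.41e-11, limma), or 3.95-fold. In each of the 4 HepG2 groups the lowest value was that of the library numbered 3, and without the libraries numbered 3 the difference was also past the threshold (adjusted p = 2.45e-09).

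SLC27A4 (FATP4), the main FATP of the enterocyte brush border and other epithelia, on chromosome 9 (128340527 to 128361470, plus strand), was not higher in the gut line. It was 17.2, 17.3 and 14.4 TPM in mono-cultured control Caco-2 cells and 27.7, 26.8 and 29.6 TPM in mono-cultured control HepG2 cells. Over all groups the lines overlapped slightly, with a highest Caco-2 value of 19.1 TPM and a lowest HepG2 value of 18.2 TPM. Averaged over the 4 groups, the log2 difference was 0.67 ± 0.08 (adjusted p = 2.91e-07, limma), 1.59-fold higher in HepG2 cells. Within the summed TPM of SLC27A1 to SLC27A6, SLC27A2 held a median of 45.5% and SLC27A3 33.3% in Caco-2 cells, whereas SLC27A5 held 35.3%, SLC27A4 25.2% and SLC27A2 24.9% in HepG2 cells.

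**Figure D2:**
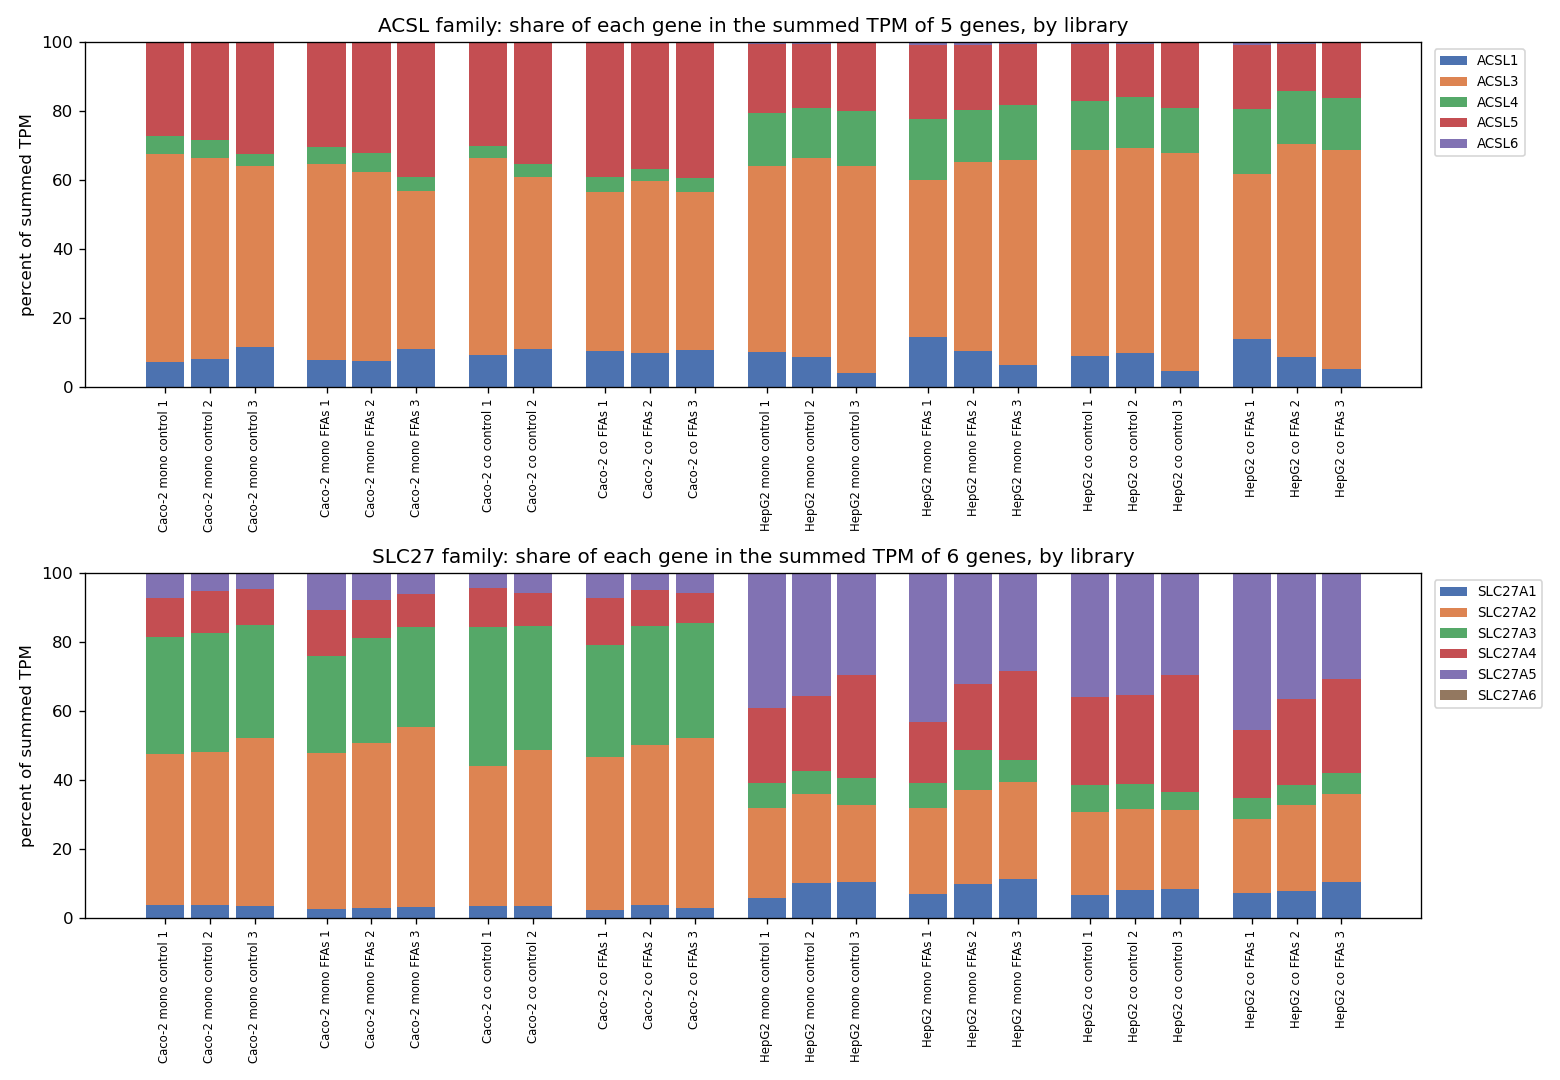
Share of each gene (percent, vertical axis) in the summed TPM of ACSL1, ACSL3, ACSL4, ACSL5 and ACSL6 (upper panel) and of SLC27A1 to SLC27A6 (lower panel), with 1 stacked bar per library (group and replicate number on the horizontal axis). The ACSL4 share is 3.28% to 5.52% in Caco-2 and 13.1% to 18.9% in HepG2 libraries, and the SLC27A5 share is 4.35% to 10.7% in Caco-2 and 28.3% to 45.5% in HepG2 libraries.

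Among the long-chain acyl-CoA synthetases, ACSL4 had the largest averaged difference between the lines among the 8 genes that were above 1 TPM in both. With a pseudocount of 0.1 in place of 1, the low genes FABP2 (3.74) and CD36 (3.22) had larger log2 differences than ACSL4 (2.69). ACSL4, an enzyme with a preference for arachidonic acid, lies on chromosome X (109624244 to 109733403, minus strand). It was 19.4, 20.5 and 14.1 TPM in mono-cultured control Caco-2 cells and 94.9, 108 and 119 TPM in mono-cultured control HepG2 cells. Over all groups Caco-2 libraries lay between 11.6 and 21.1 TPM and HepG2 libraries between 87.4 and 119.7 TPM, so the lines were far apart. The averaged log2 difference was 2.62 ± 0.08 (adjusted p = 8.79e-17, limma), or 6.16-fold.

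ACSL3, an enzyme of the endoplasmic reticulum and of nascent lipid droplets, on chromosome 2 (222860942 to 222944639, plus strand), was the most abundant synthetase of both lines. It was 231, 223 and 209 TPM in mono-cultured control Caco-2 cells and 339, 427 and 447 TPM in mono-cultured control HepG2 cells, without overlap. When all groups were pooled the lines overlapped, because the HepG2 library of mono-cultured FFAs-treated replicate 1 (223 TPM) and that of co-cultured FFAs-treated replicate 1 (229 TPM) did not exceed the highest Caco-2 library (231 TPM). Averaged over the 4 groups, the log2 difference was 0.93 ± 0.11 (adjusted p = 2.97e-07, limma), or 1.91-fold. ACSL3 supplied 45.8% to 60.3% of the summed ACSL TPM in Caco-2 libraries and 45.4% to 63.5% in HepG2 libraries, ranges that largely coincide.

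ACSL1, the major synthetase of liver and fat tissue, on chromosome 4 (184755595 to 184826818, minus strand), depended on the libraries numbered 3. In mono-cultured control HepG2 cells it was 63.4, 64.2 and 29.9 TPM, and in mono-cultured control Caco-2 cells it was 28.1, 30.5 and 45.7 TPM. The library numbered 3 was the lowest in all 4 HepG2 groups, where it was between 29.9 and 40.6 TPM against 63.4 to 71.4 TPM in the other 8 libraries, and the highest in all 3 Caco-2 groups that have one, between 43.1 and 45.7 TPM. The averaged log2 difference was 0.60 ± 0.16 (adjusted p = 0.00244, limma) with all libraries and 1.02 ± 0.06 (adjusted p = 1.11e-08) without those numbered 3. In mono-cultured controls it was 0.53 ± 0.32 (adjusted p = 0.155), and it passed at 0.89 (adjusted p = 0.0213) without HepG2 control replicate 3 alone and at 1.10 (adjusted p = 1.06e-05) without all libraries numbered 3.

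ACSL5, a synthetase of the mitochondrial outer membrane and endoplasmic reticulum that is abundant in the small intestine, on chromosome 10 (112374116 to 112428379, plus strand), was at a like level in both lines. It ranged from 102 to 162 TPM in Caco-2 cells and from 90.04 to 158 TPM in HepG2 cells. Averaged over the 4 groups, the log2 difference was -0.08 ± 0.09 (adjusted p = 0.398, limma), and it turned to 0.15 with median-of-ratios scaling and 0.11 with quantile normalization, neither of which passed. In mono-cultured controls, at 104, 108 and 128 TPM in Caco-2 cells and 126, 136 and 147 TPM in HepG2 cells, the difference was 0.27 ± 0.17 (adjusted p = 0.174), and it passed at 0.47 and 0.48 under those scalings. ACSL5 nevertheless held a larger share of the summed ACSL TPM in Caco-2 libraries, 27.1% to 39.1%, than in HepG2 libraries, 13.8% to 21.5%.

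**Figure D3:**
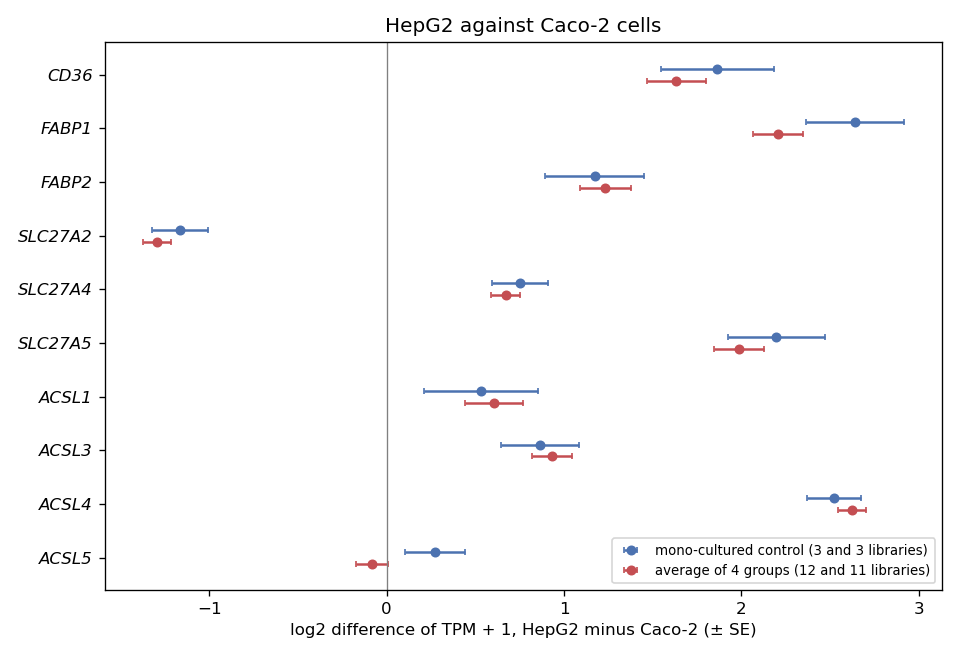
Log2 difference of TPM + 1 between HepG2 and Caco-2 cells (horizontal axis, points with SE bars, values above 0 higher in HepG2 cells) for each of the 10 genes, in mono-cultured controls (blue) and averaged over the 4 groups (red). ACSL4 and FABP1 lie above 2, SLC27A2 below -1, and ACSL5 near 0.

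FFAs were compared with control within each line and culture to ask whether 1 day of fatty acid loading changed the genes of uptake and activation. None of the 8 genes tested in Caco-2 cells and none of the 10 tested in HepG2 cells passed an adjusted p under 0.05 in mono-culture, in co-culture or averaged over both cultures. Few genes of any kind passed in limma, 0 of 15081 (0%) and 3 (0.0199%) in mono- and co-cultured Caco-2 cells and 0 of 14255 (0%) in either culture of HepG2 cells. At an unadjusted p under 0.05, the averaged comparison held 1 of 8 genes in Caco-2 cells, against 3.99% of all genes, and 2 of 10 in HepG2 cells, against 3.49%. The log2 differences of the averaged comparison lay between -0.19 (ACSL3) and 0.35 (SLC27A5) in Caco-2 cells and between -0.35 (ACSL3) and 0.17 (FABP2) in HepG2 cells. By the criteria of the study, an unadjusted p under 0.05 over the 4 groups of a line and a 1.2-fold difference between any pair of groups, ACSL3 counted in Caco-2 cells, where 3.08% of all genes did, and SLC27A4 counted in HepG2 cells, where 3.56% did.

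ACSL3 had lower mean TPM with FFAs in all 4 settings. In Caco-2 cells it was 231, 223 and 209 TPM in mono-cultured controls and 191, 209.7 and 179 TPM with FFAs, and in co-culture it was 202 and 203 TPM in controls and 159, 185 and 190.4 TPM with FFAs. The mono-cultured groups overlapped and the co-cultured groups did not, as for 8.91% of all genes with lower values in that comparison. The averaged log2 difference was -0.19 ± 0.07 (unadjusted p = 0.0170, adjusted p = 0.990, limma).

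In HepG2 cells ACSL3 with FFAs was 223, 373 and 323 TPM in mono-culture and 229, 478 and 481 TPM in co-culture, against 339, 427 and 447 TPM and 431, 405 and 534 TPM in the controls. In both cultures the lowest value was replicate 1 with FFAs, and the groups overlapped. The log2 differences were -0.42 ± 0.27 and -0.27 ± 0.27 (adjusted p = 1.00 in both), and without co-cultured FFAs-treated replicate 1 the second became 0.08.

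SLC27A4 had lower mean TPM with FFAs in HepG2 cells but did not pass the adjusted threshold. In mono-culture it was 18.2, 22.1 and 24.5 TPM with FFAs and 27.7, 26.8 and 29.6 TPM without, which did not overlap, as for 3.37% of all genes with lower values. In co-culture it was 21.5, 28.6 and 22.7 TPM with FFAs and 31.0, 27.1 and 31.7 TPM without, which overlapped at 1 library. The log2 difference was -0.37 ± 0.14 in mono-culture, -0.30 ± 0.14 in co-culture and -0.34 ± 0.10 averaged (unadjusted p = 0.00666, adjusted p = 1.00, limma). In Caco-2 cells the averaged difference was 0.04, and the difference between the lines was -0.38 ± 0.16 (unadjusted p = 0.0305, adjusted p = 1.00).

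ACSL5 leaned in opposite directions in the lines. In HepG2 cells the mean with FFAs was 110.0 ± 16.2 TPM (SD, n = 3) in mono-culture and 106 ± 15.4 TPM in co-culture, against 137 ± 10.6 and 127 ± 27.7 TPM in the controls. In Caco-2 cells it was 126 ± 25.4 TPM in mono-culture and 144 ± 15.6 TPM in co-culture with FFAs, against 113 ± 12.97 TPM and 125 TPM (105.8 and 144 TPM in the 2 libraries) without. The groups overlapped in each of these 4 comparisons. On average, the log2 difference was -0.29 ± 0.12 in HepG2 cells (unadjusted p = 0.0305), 0.18 in Caco-2 cells, and the difference between the lines was -0.46 ± 0.18 (unadjusted p = 0.0166, adjusted p = 1.00, limma). In that comparison of the lines 2.99% of all genes and 2 of the 10 genes had an unadjusted p under 0.05, and 3 genes of all 16495 (0.0182%) passed the adjusted threshold.

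The other differences with FFAs beyond 1.2-fold had wide errors. SLC27A5 in Caco-2 cells was 15.4, 11.2 and 8.72 TPM with FFAs and 10.8, 7.38 and 6.22 TPM without in mono-culture, a log2 difference of 0.48 ± 0.23 (unadjusted p = 0.0626, limma) between overlapping groups. CD36 in co-cultured HepG2 cells was 1.68, 1.86 and 1.54 TPM with FFAs and 4.16, 5.33 and 1.74 TPM without, a log2 difference of -0.73 ± 0.36 (unadjusted p = 0.0623). The co-cultured groups overlapped only through control replicate 3, and without the libraries numbered 3 the difference was -1.05 (unadjusted p = 0.00394, adjusted p = 0.992). In mono-culture CD36 was 5.46, 3.33 and 3.13 TPM with FFAs and 4.23, 4.39 and 1.52 TPM without. The difference of the FFAs effect on CD36 between co-culture and mono-culture was -0.97 ± 0.50 (unadjusted p = 0.0794, adjusted p = 1.00), and -1.04 ± 0.37 (unadjusted p = 0.0225, adjusted p = 1.00) without the libraries numbered 3. FABP1 in co-cultured Caco-2 cells was 0.27 ± 0.22 higher on the log2 scale with FFAs, FABP2 in co-cultured HepG2 cells 0.27 ± 0.37, and both pairs of groups overlapped. FABP1, SLC27A2, ACSL1 and ACSL4 with FFAs averaged over both cultures were within 0.20 of control on the log2 scale in both lines.

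**Figure D4:**
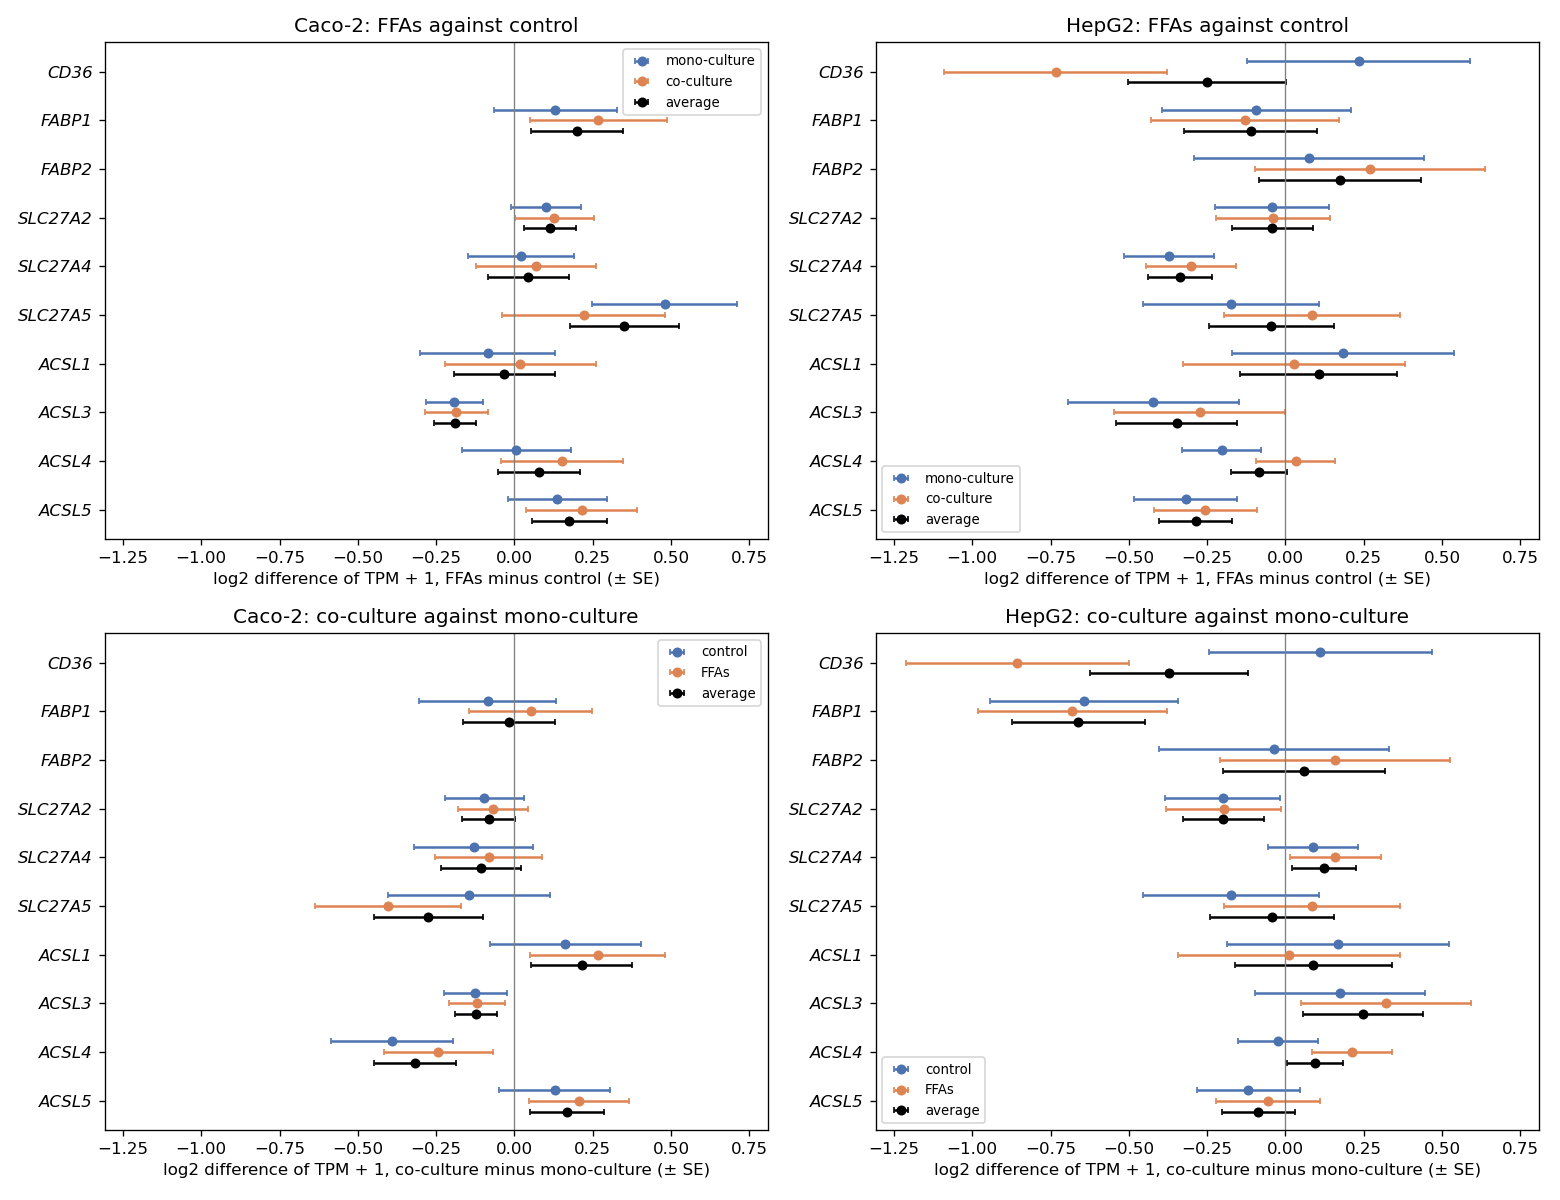
Log2 differences of TPM + 1 (horizontal axes, points with SE bars) for each gene in Caco-2 (left) and HepG2 cells (right). The upper panels give FFAs minus control in mono-culture, co-culture and on average, the lower panels co-culture minus mono-culture in control, with FFAs and on average, and CD36 and FABP2 have no points in Caco-2 cells, where they were under 1 TPM. FABP1 in HepG2 cells lies near -0.66 in co-culture, and most other points are within 0.4 of 0.

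Co-culture was compared with mono-culture to ask whether medium shared with the other line changed these genes. None of them passed an adjusted p under 0.05 in limma without a replicate block. Among all genes, 3 of 15081 (0.0199%) passed in control Caco-2 cells and 8 of 14255 (0.0561%) in HepG2 cells averaged over both treatments, and 0 passed in the other comparisons of co-culture. At an unadjusted p under 0.05 the averaged comparison held 1 of 8 genes in Caco-2 cells, against 10.5% of all genes, and 1 of 10 in HepG2 cells, against 12.5%. The control groups and the FFAs groups of these comparisons are the same libraries as in the comparisons with FFAs above.

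FABP1 had lower mean TPM in co-cultured than in mono-cultured HepG2 cells, a difference that passed the adjusted threshold only when the replicate number was a block. In controls it was 3569, 4327 and 1880 TPM in co-culture against 4399, 5816 and 4332 TPM in mono-culture, with all 3 co-cultured libraries below all 3 mono-cultured ones, as for 7.60% of all genes. The nearest pair, co-cultured replicate 2 and mono-cultured replicate 3, was at almost the same level. With FFAs it was 3037, 3451 and 2117 TPM in co-culture against 4971, 5605 and 3278 TPM in mono-culture, and there the groups overlapped at mono-cultured replicate 3. The log2 difference was -0.64 ± 0.30 in controls, -0.68 ± 0.30 with FFAs and -0.66 ± 0.21 averaged, where the level was 1.58-fold lower (unadjusted p = 0.00924, adjusted p = 0.241, limma). Without the libraries numbered 3 the averaged difference was -0.53 ± 0.11 (adjusted p = 0.117), and leaving out single libraries moved it between -0.79 and -0.48. FABP1 was lower in co-culture in each of the 6 same-numbered pairs of HepG2 libraries, a pairing that the labels do not state. The lack of overlap in controls already fixed this for the control pairs, so they add nothing to it. How many of all genes were lower in every same-numbered pair was not counted. With the replicate number as a block the averaged difference was -0.66 ± 0.10 and passed (adjusted p = 0.0147), as 1 of 492 genes instead of 8, while the differences in controls (adjusted p = 0.155) and with FFAs (adjusted p = 0.133) did not. In Caco-2 cells the averaged difference was -0.02, and the difference between the lines was -0.64 ± 0.28 (unadjusted p = 0.0355, adjusted p = 0.298). The summed hepatocyte markers of co-cultured HepG2 libraries were 67.7% to 94.5% of the mean of mono-cultured controls, against 88.0% to 107.5% in the mono-cultured libraries, and the part of this in the FABP1 values was not tested.

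CD36 in HepG2 cells stood lower in co-culture in the FFAs-treated libraries. It was 1.68, 1.86 and 1.54 TPM in co-culture and 5.46, 3.33 and 3.13 TPM in mono-culture, which did not overlap, as for 5.44% of all genes with lower values. The log2 difference was -0.86 ± 0.36 (unadjusted p = 0.0337, adjusted p = 0.863, limma) with FFAs, 0.11 in controls and -0.37 ± 0.25 averaged.

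ACSL4 in Caco-2 cells had the lowest values in co-culture. In controls it was 11.6 and 15.3 TPM in co-culture and 19.4, 20.5 and 14.1 TPM in mono-culture, and with FFAs it was 15.1, 13.1 and 16.8 TPM in co-culture and 17.1, 21.1 and 15.8 TPM in mono-culture. Both pairs of groups overlapped. The averaged log2 difference was -0.32 ± 0.13 (unadjusted p = 0.0336, adjusted p = 0.443, limma), and -0.48 ± 0.13 (adjusted p = 0.164) without the libraries numbered 3. In HepG2 cells it was 0.09, and the difference between the lines was 0.41 ± 0.16 (unadjusted p = 0.0175, adjusted p = 0.223). In this comparison of the effect of co-culture between the lines, 2 of the 10 genes had an unadjusted p under 0.05, against 14.6% of all genes, and 0.533% of all genes passed the adjusted threshold.

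Other differences with co-culture did not pass and had wide errors. SLC27A5 in Caco-2 cells had a log2 difference of -0.40 ± 0.23 with FFAs and of -0.27 ± 0.17 averaged. ACSL1 in Caco-2 cells with FFAs was 0.27 ± 0.22 higher, and ACSL3 in HepG2 cells with FFAs was 0.32 ± 0.27 higher. ACSL3 in control Caco-2 cells, at 202 and 203 TPM in co-culture and 231, 223 and 209 TPM in mono-culture, did not overlap, as for 7.99% of all genes with lower values, with a log2 difference of -0.12. The remaining differences of tested genes with co-culture within a line were within 1.2-fold. Between the lines, the averaged effect of co-culture also differed beyond 1.2-fold for ACSL3 and CD36, and neither passed. With single libraries left out, these log2 differences lay between 0.26 and 0.55 for ACSL3 and between -0.57 and -0.21 for CD36.

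The other genes of the pathway were taken from lists of names. Among 11 further members of the FATP, ACSL and FABP families, 8 reached 1 TPM in at least 1 group of either line, of which 4 were higher and 3 lower in HepG2 cells on average, where 79.0% of all genes passed. FABP3, FABP6, ACSL6 and ACSBG1 were under 1 TPM in every group of one line and entered through the other, so a difference was bound to appear for them. FABP7 likewise entered through Caco-2 cells alone. SLC27A3, which is not a member of the 10, was 40.8 to 56.0 TPM in Caco-2 and 4.75 to 13.3 TPM in HepG2 cells, the second-highest SLC27 gene of the gut line. Of 15 genes that bind or hydrolyse acyl-CoA, 2 were higher and 12 lower in HepG2 cells, with a median of -0.69, against 29.2% higher, 49.8% lower and a median of -0.24 over all genes. The thioesterases ACOT4 and ACOT12 were at most 0.280 and 0.0400 TPM in HepG2 cells and entered through Caco-2 cells alone. Of 5 membrane helpers and fatty acid receptors, 4 were tested and 3 were lower in HepG2 cells, against 49.8% of all genes. Of these, caveolin CAV2 and the receptor FFAR4, at most 0.430 and 0.0800 TPM in HepG2 cells, entered through Caco-2 cells alone.

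Of 16 transcription factors known to act on these genes, 5 were higher and 8 lower in HepG2 cells on average, shares close to the 29.2% and 49.8% of all genes. The bile acid receptor NR1H4 was 24.1 to 57.5 TPM in HepG2 and at most 1.03 TPM in Caco-2 cells. The intestinal factor CDX2 was at least 60.4 TPM in Caco-2 and at most 0.730 TPM in HepG2 cells. Each was under the filter in the line where it was low, so a difference was bound to appear for both. PPARD, RXRA and FOXO1 did not pass. CREB3L3, a hepatic factor of fasting and lipid metabolism, was 2.21 ± 0.24 higher in HepG2 cells.

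No gene of these lists passed the adjusted threshold with FFAs or with co-culture within a line. Of 5 genes that respond to fatty acids in many cells, all 5 tested in Caco-2 cells and all 4 tested in HepG2 cells had a positive averaged difference with FFAs, with medians of 0.50 and 0.31 against 0.01 for all genes in both lines. The lipid droplet protein PLIN2 in Caco-2 cells was 140.1, 165 and 252 TPM with FFAs against 119, 135 and 137 TPM in mono-culture, and 223, 239 and 254 TPM against 155 and 175 TPM in co-culture, with an averaged difference of 0.50 ± 0.13 (unadjusted p = 0.00243, adjusted p = 0.990, limma). In HepG2 cells PLIN2 was 410.2, 388 and 439 TPM with FFAs against 313, 287 and 419 TPM in mono-culture, and 404, 456 and 636 TPM against 434, 435 and 627 TPM in co-culture. These groups overlapped, with log2 differences of 0.30 ± 0.20 and -0.0052 ± 0.20 (unadjusted p = 0.156 and 0.979, limma). The sterol regulator SREBF1 had the lowest difference of the 15 factors tested in each line, -0.52 ± 0.10 in Caco-2 cells (unadjusted p = 0.000383, adjusted p = 0.705) and -0.42 ± 0.13 in HepG2 cells (unadjusted p = 0.00892, adjusted p = 1.00).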

How the data were processed

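The labels gave each library's group and replicate number. The authors deposited 1 table of TPM per library. Per the methods and the submitters' processing notes, rRNA, tRNA and mitochondrial reads were removed (Bowtie2 2.1.0), STAR 2.7.1a aligned the remainder to GRCh38, and RSEM 1.3.0 gave TPM. Depth is unknown. Values were analysed as log2(TPM + 1) in limma 3.58.1 (R 4.3.3, eBayes with a trend) for genes whose mean reached 1 TPM in some group. The 4 groups of a line shared a fit (15081 genes in Caco-2, 14255 in HepG2 cells), and all 8 groups were fitted to compare lines (16495 genes), with Benjamini-Hochberg adjustment at 0.05. The 10 genes and the other lists were chosen with earlier results of these data known. Within a line, members with an unadjusted p under 0.05, at least 1.2-fold or without overlap are given with the difference or TPM. The others are given by range, and only some differences of an effect between the lines are given. Only some of the list genes that passed or were the lowest or highest of their list are given. SLC27A3, PLIN2, NR1H4, CREB3L3 and the low list genes and markers were singled out after their values were seen. Alternatives were other pseudocounts, filters, scalings and fits, a replicate block and left-out libraries. Same-numbered HepG2 libraries of co-culture and mono-culture with the same treatment correlated in deviations from group means in every pair (0.109 to 0.601). The labels state no pairing. In controls, co-cultured replicate 1 correlated more with mono-cultured replicate 2 (0.193) than with replicate 1 (0.109). Co-cultured control replicate 2 correlated by 0.136 with mono-cultured replicate 1 and by 0.163 with replicate 2. Pairing by number was thus not shown for these control replicates, and the block is given beside that comparison as an alternative. The scripts were tested on simulated data. Positions and exon overlaps come from GENCODE v44, promoters from RefSeq. The value of 1 list gene is not reported here.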

Additional observations from a re-analysis of the deposited data

How the results depend on the processing

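Of 54 differences of the 10 genes that were at least 1.2-fold or had an unadjusted p under 0.05, 53 kept their direction under every alternative tried and 50 also kept their side of the adjusted threshold. The exception in direction among them was ACSL3 in co-cultured HepG2 cells with FFAs, between -0.45 and 0.0797 with single libraries left out. Outside them, the averaged ACSL5 difference between the lines (-0.08) turned to 0.15 with median-of-ratios scaling, 0.11 with quantile normalization and 0.13 with that scaling and the block. The number of the 10 genes that passed was the same or close to it throughout in 17 of 20 comparisons. The exceptions were co-culture averaged in HepG2 cells and the criteria of the study in each line, given below. Between the lines in mono-cultured controls the number stayed close, although ACSL1 and ACSL5 passed under some alternatives. Same-numbered libraries of a line correlated in their deviations by over 0.1 in 15 of 18 pairs in HepG2 and 7 of 15 in Caco-2 cells, so pairing by number was not shown over all groups of either line. With the replicate block, 1 member instead of 0 passed for co-culture averaged in HepG2 cells (FABP1, -0.66, adjusted p = 0.0147), as also with the block and median-of-ratios scaling together (1 member). That combination and leaving out the libraries numbered 3 were chosen after seeing the data. All genes called in that comparison numbered 8, 492 with the block, 532 with the block and scaling, 22 with a filter at 5 TPM, 4 with quantile normalization or without the libraries numbered 3, and 1 without a filter. In Caco-2 cells they numbered 0, 60 with the block, 46 with the block and scaling, and 7 without a filter. The difference of the co-culture effect between the lines gave 88 genes, 835 with the block, 810 with the block and scaling, and 328 without the libraries numbered 3. The other comparisons within a line, and that of the FFAs effect between the lines, gave 0 to 3 genes and at most 11 under any alternative. ACSL1 passed between the lines in mono-cultured controls with the block (0.53), median-of-ratios scaling (0.72) and quantile normalization (0.77). By the criteria of the study 1 member counted in Caco-2 cells (ACSL3), 0 with an adjusted p, 0 with the block, and 0 to 1 with single libraries left out. In HepG2 cells 1 counted (SLC27A4), 0 with an adjusted p, 2 with the block (with FABP1), and 0 to 1 with single libraries left out. All genes meeting these criteria numbered 957 and 1066, 9 and 1 with an adjusted p, and 1374 and 1661 with the block. TPM without counts give no counting error, so the precision of low values such as those of CD36 and FABP2 is unknown.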
